A study of Homo sapiens with 2 samples.

Results

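Autophagy and lysosome genes were examined in SKOV3 cells, a human ovarian adenocarcinoma line, after RUNX2 knockdown. The 45 members were a given list of gene symbols, and a gene was found on the array through the RefSeq accession of its probes. A probe was matched for 44 of the 45, and NBR1, a cargo receptor, had none. These genes carried 65 of the 41000 probes of the array, and 44 of the 17240 genes that could be named. The list holds 29 autophagy genes (28 with a probe), 13 lysosomal genes and 3 regulators, which are NUPR1, TFEB and TFE3.

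Total RNA of the knockdown clone cl-sh3 was compared with that of a control (mock-transfected) clone on 2-colour Agilent whole human genome arrays. cl-sh3 stably carries an shRNA against RUNX2 in the lentiviral vector pLKO.1-puro, and the control clone carries a scrambled sequence in the same vector. Both clones were selected with puromycin and grown as adherent cells in RPMI medium with fetal calf serum. In hybridization 1 cl-sh3 was labelled with Cy5 and the control with Cy3, and hybridization 2 was the dye swap. Both hybridizations came from the same RNA pair on 1 slide and are therefore 1 replicate, so no test between the clones was possible and no p-value is given. Each group is 1 clone, so RUNX2 knockdown and any other difference between the clones cannot be told apart, and in RNA of a whole culture fewer expressing cells and less RNA per cell cannot be told apart either.

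Autophagy encloses cytoplasm in a double membrane, the autophagosome, which then fuses with the lysosome, where acid hydrolases break the contents down. The ULK kinase complex starts the process, the class III PI3-kinase complex marks the membrane with the lipid PI3P, and ubiquitin-like conjugation attaches ATG8 proteins to the growing membrane. Much of the lysosomal gene set is driven by TFEB and TFE3, which bind the sequence TCACGTGA and its variants, and part of the autophagy gene set is driven by ATF4 and CHOP during amino acid shortage and stress of the endoplasmic reticulum.

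Values are log2 ratios of cl-sh3 over control after background correction and loess normalization, given for each hybridization, and a negative value is lower in cl-sh3. Where a gene had several probes, the brightest stands for it. In both hybridizations, 84 of 16150 genes measured (0.52%) were 2-fold or more lower in cl-sh3 and 22 (0.136%) were 2-fold or more higher. The median ratio of all genes was 0.01, and 95% of genes lay between -0.72 and 0.59. Between hybridizations the ratio of a gene shifted by a median of 0.23, and by no more than 0.64 in 95% of genes. Among the 44 members the median shift was 0.27, the 95% limit 0.71 and the largest shift 1.12. These shifts are the spread between the dye orientations of 1 RNA pair and leave out error of culture and RNA extraction. RUNX2 itself, the target of the shRNA, had ratios of -2.04 and -1.30, a mean of 3.18-fold lower, at the brightest probe, whereas its other 2 probes had mean ratios of 0.02 and -0.23. Those 2 probes were dimmer, with mean log2 intensities of 8.36 and 7.58, against 10.37 at the brightest. The probe at -0.23 was not well above background in both RNAs. All 12 epithelial ovarian carcinoma markers were well above background in both RNAs. Of 9 matched markers of leukocytes, endothelium and fibroblasts, 8 were so too, so this detection flag did not separate cell types. The 44 members were well above background in both RNAs and in both hybridizations, and none was lost to the filter on dim probes.

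Of the 44 members measured, 1 met the 2-fold rule. NUPR1 was lower in cl-sh3, against 0.52% of all genes, and no member was at least 2-fold higher, against 0.136%. At a threshold of 1.5-fold in both hybridizations the count was unchanged, with NUPR1 lower and no other member in either direction, where 2.61% of all genes were lower and 1.6% higher. By sign alone, 20 members (45.5%) were below 0 in both hybridizations, beside 28.4% of all genes, and 10 (22.7%) were above 0 in both, beside 30.9%. The remaining 14 had unlike signs. The counts shifted with the normalization, for members and for all genes. With median centring of each array, 17 members were below and 12 above 0, beside 4054 and 5854 of all 16150 genes. With the ratios that the scanner software computed, 20 members were below and 17 above, beside 4764 and 5706 of all genes. The median of all members was -0.07 and turned to 0.01 with median centring, under which the median of all genes was 0.05.

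**Figure D1:**
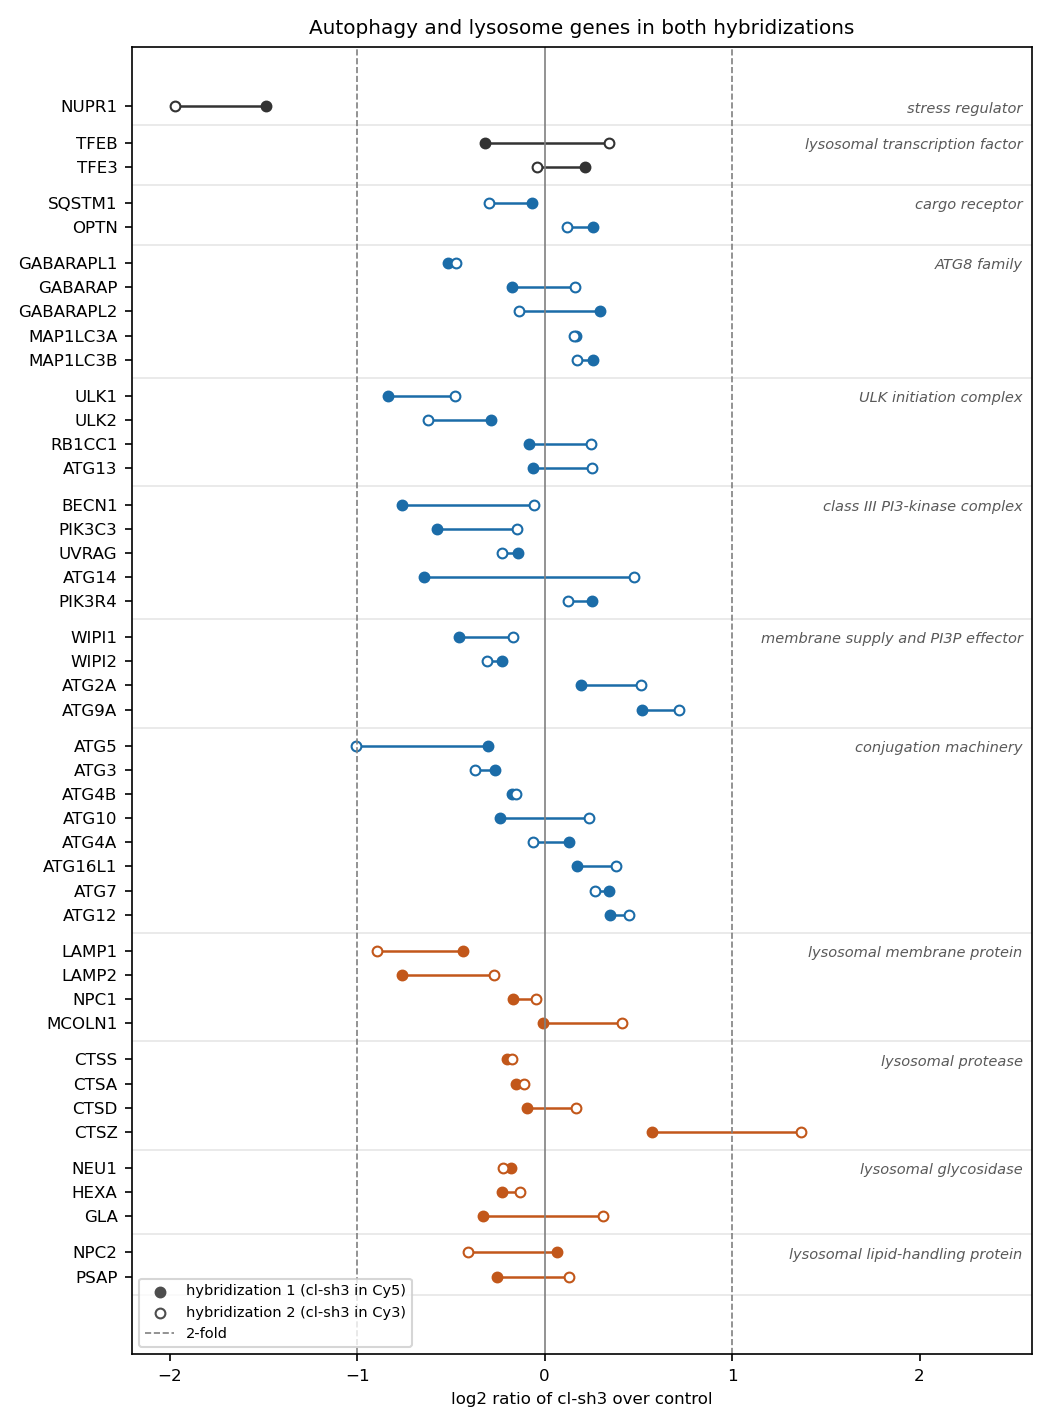
Log2 ratio of cl-sh3 over control for the 44 members measured, grouped by role, with filled points for hybridization 1, open points for hybridization 2 and a line joining them (dashed lines, 2-fold). NUPR1 lies beyond 2-fold in both hybridizations, CTSZ and ATG5 pass 2-fold in hybridization 2 alone, and the other members lie inside 2-fold in both.

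NUPR1, also called p8, encodes a small chromatin-associated protein that is induced by ATF4 under stress and that has been linked to the control of autophagy. Its probe (A_24_P270728) read a signal of 18489 in cl-sh3 and 26894 in the control in hybridization 1, over local backgrounds of 145 and 41. In hybridization 2 the signals were 8935 in cl-sh3 and 36414 in the control, over backgrounds of 41 and 188. The control was brighter in both dye orientations. After normalization the ratios were -1.49 and -1.97, a mean of -1.73, or 3.31-fold lower in cl-sh3. With median centring the ratios were -1.29 and -1.91, and the software's were -1.61 and -1.77, so the gene was past 2-fold in each hybridization under these settings too. Only 0.105% of all genes had a lower mean ratio. NUPR1 was on the list by name and its ratio was known when the list was drawn, so its value is a description.

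After loess normalization, the transcription factors of the lysosomal gene set had no common direction in the dye orientations. TFEB had ratios of -0.32 and 0.34, and TFE3 of 0.21 and -0.04. In each case the signs were opposite, and the mean ratios were 0.01 for TFEB and 0.09 for TFE3. With the software's ratios TFE3 was above 0 in both hybridizations, at 0.07 and 0.18, while TFEB had -0.12 and 0.25.

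The lysosomal genes had the lower median of the 2 classes, by a small margin. Among 28 autophagy genes, 12 (42.9%) were below 0 in both hybridizations and 9 (32.1%) above, beside 28.4% and 30.9% of all genes, and with the software's ratios the counts were 12 and 13. Their median ratio was -0.00, with -0.11 in hybridization 1 and 0.03 in hybridization 2, and over the settings tried it ranged from -0.03 to 0.05. Among 13 lysosomal genes, 7 (53.8%) were below 0 in both and 1 (7.69%) above, and with the software's ratios 7 and 3. Their median was -0.13, with -0.18 and -0.11 in the hybridizations, and it stayed below 0 in each setting, from -0.13 to -0.04. The median of the autophagy genes was 0.13 above that of the lysosomal genes (0.06 in hybridization 1 and 0.14 in hybridization 2, and 0.08 to 0.13 over the settings). The genes of a class share 1 pair of RNAs and are not replicates, so the difference was not tested.

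**Figure D2:**
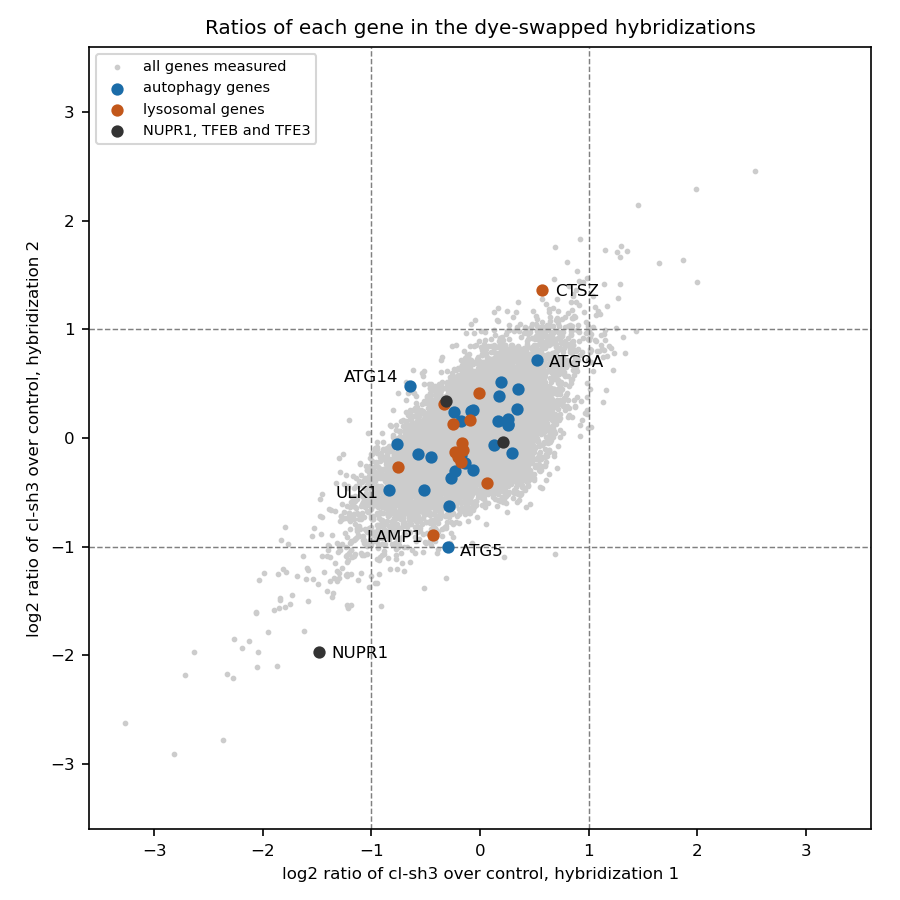
Log2 ratio of cl-sh3 over control in hybridization 1 (horizontal) and hybridization 2 (vertical) for 16150 genes (grey), with the autophagy genes in blue, the lysosomal genes in orange and NUPR1, TFEB and TFE3 in black (dashed lines, 2-fold). NUPR1 lies in the corner that is 2-fold lower in both hybridizations, whereas the other members lie within or at the edge of the grey cloud, with CTSZ highest and ATG14 farthest from equal ratios.

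In the lysosomal class, 3 of the 9 members with a promoter sequence in the RefSeq table held TCACGTGA within the window of 250 bases before to 50 bases after the start of the gene, where 321 of 27303 genes (1.18%) held it on either strand. These 3 are shown because they carry the site that TFEB and TFE3 bind. Whether the site goes with the ratio was not tested. Each sequence runs along the gene, on GRCh38.p14, with the site in capitals. For LAMP1 it is chr13:113297189-113297248 on the plus strand, for MCOLN1 chr19:7522574-7522633 on the plus strand and for CTSA chr20:45891285-45891344 on the plus strand, and each ends 10 bases into the gene.
LAMP1: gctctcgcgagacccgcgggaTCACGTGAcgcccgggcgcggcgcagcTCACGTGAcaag
MCOLN1: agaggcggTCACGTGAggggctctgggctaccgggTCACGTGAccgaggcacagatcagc
CTSA: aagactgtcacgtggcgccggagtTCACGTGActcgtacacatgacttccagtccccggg
LAMP1 and MCOLN1 hold the site at 2 positions each and CTSA at 1. The match describes letters in a window and says nothing of binding in these cells.

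The lysosomal membrane proteins had 3 of 4 genes below 0 in both hybridizations and a median of -0.31, which stayed below 0 in each setting (-0.31 to -0.09). With median centring or the software's ratios, 2 of the 4 were below and 1 was above. LAMP1, a heavily glycosylated protein that lines the lysosomal membrane, had ratios of -0.44 and -0.90 at its brightest probe (A_23_P162846), a mean of 1.59-fold lower. Its other probe (A_24_P304549) had the opposite direction in both hybridizations, 0.32 and 0.72, a mean of 1.43-fold higher. The brightest probe was also sensitive to the normalization, since median centring gave 0.08 and -0.92. LAMP1 therefore has no settled direction on this array. LAMP2, its relative that also serves chaperone-mediated autophagy, had ratios of -0.76 and -0.27, a mean of -0.51. Of its other 2 probes, 1 was close to this (mean -0.65) and 1 was smaller (mean -0.10), and the mean was below 0 at each of the 3 probes. NPC1, which exports cholesterol from the lysosome, had ratios close to 0, of -0.17 and -0.05. MCOLN1, the lysosomal calcium channel TRPML1, had ratios of -0.01 and 0.41.

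CTSZ, a cysteine carboxypeptidase of the lysosome, was the highest member. Its signal was 6632 in cl-sh3 and 2513 in the control in hybridization 1, over backgrounds of 169 and 47, and 6684 and 2856 in hybridization 2, over backgrounds of 46 and 163. cl-sh3 was the brighter RNA in both dye orientations. The normalized ratios were 0.57 and 1.37, a mean of 0.97 or 1.96-fold higher, so CTSZ passed 2-fold in hybridization 2 and not in hybridization 1 and did not meet the rule. The software's ratios were 0.74 and 1.24, and 99.6% of all genes had a lower mean. The other proteases did not follow it. CTSD, the main aspartic protease of the lysosome, had ratios of -0.09 and 0.17. CTSA, a carboxypeptidase that also protects NEU1, had -0.15 and -0.11, with a mean of 0.02 at its other probe. CTSS, a cysteine protease best known from antigen presentation, had -0.20 and -0.17, and its other probe was the 1 of the 65 that was not well above background.

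The glycosidases and the lipid-handling proteins of the lysosome lay close to 0. HEXA, the alpha subunit of beta-hexosaminidase, had ratios of -0.23 and -0.13, and NEU1, a sialidase, -0.18 and -0.22. Both were slightly below 0 in each dye orientation. GLA, alpha-galactosidase A, turned sign with the dyes (-0.33 and 0.31). So did NPC2, which hands cholesterol to NPC1 (0.07 and -0.41), and PSAP, the precursor of the saposins that help hydrolases reach their lipids (-0.25 and 0.13). The means of these 5 lay between -0.20 and -0.01. With the software's ratios NPC2 was below 0 in both hybridizations, at -0.06 and -0.46.

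Among the autophagy genes, TGTGGT, the core of the RUNX site, was found on either strand in the promoter window of ATG5, BECN1 and ATG7, and among the lysosomal genes in that of NPC2. That makes 4 of the 37 member promoters at hand (10.8%), beside 15.6% of all genes in the table. The stretches of ATG5 and BECN1 are shown as examples, picked for ratios below 0 in each hybridization at the brightest probe. Another BECN1 probe had ratios of -0.13 and 0.07. Whether the letters go with the ratio was not tested. On GRCh38.p14, the ATG5 stretch is chr6:106325428-106325487 on the minus strand, which ends 10 bases into the gene, and the BECN1 stretch is chr17:42823910-42823969 on the minus strand, which ends 31 bases before the start. Both run along the gene, with TGTGGT in capitals.
ATG5: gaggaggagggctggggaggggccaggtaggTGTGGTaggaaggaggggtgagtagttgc
BECN1: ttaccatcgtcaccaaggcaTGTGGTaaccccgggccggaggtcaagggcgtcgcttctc
ATG7 holds the same letters and had ratios above 0, and NPC2 holds them and had 0.07 and -0.41. The letters TGATGNNNA, searched for with ATF4 and C/EBP in mind, were in none of the 37 windows and in 12.1% of all, on either strand. This pattern is not the composite site of these factors itself, so its absence does not show that such sites are absent. ATG3 was the only autophagy gene of 26 with TCACGTGA in its window. The table holds no promoter for NUPR1.

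The ULK initiation complex had 2 of 4 genes below 0 in both hybridizations and a median of -0.19, which stayed below 0 in each setting. ULK1, the kinase that starts autophagy, had ratios of -0.83 and -0.48, a mean of 1.58-fold lower. At the brightest probe, ULK1 and ATG5 were at the low end of the autophagy genes, and which of the pair was lower depended on the setting. With the mean of all detected probes ULK1 was at -0.39, above GABARAPL1 at -0.45. The other ULK1 probe was much closer to 0, at -0.14 and -0.11. ULK2, the related kinase, had -0.28 and -0.62 at its brightest probe and 0.05 and -0.13 at the other. For both kinases the size of the difference depended on the probe, and for ULK2 so did its sign in hybridization 1. RB1CC1, the scaffold FIP200, had -0.08 and 0.25. ATG13, the adaptor of the complex, had -0.06 and 0.26, and its other probe had -0.65 and -0.33, so its direction differed by probe.

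In the class III PI3-kinase complex, 3 of 5 genes were below 0 in both hybridizations, and 2 of 5 with median centring. BECN1, the Beclin 1 subunit, had -0.76 and -0.06, and its other 2 probes had means of -0.03 and -0.20. PIK3C3, the catalytic subunit VPS34, had -0.57 and -0.15. Both were distinctly lower in hybridization 1 and near 0 in hybridization 2. UVRAG, a subunit of the late-acting complex, had -0.14 and -0.23, and PIK3R4, the VPS15 subunit, had 0.25 and 0.13. ATG14, which directs the complex to sites of autophagosome formation, had -0.64 and 0.48. This gap of 1.12 was the largest of any member.

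The proteins that supply membrane to the autophagosome or read PI3P on it were split evenly. ATG9A, a lipid scramblase carried by vesicles to the forming autophagosome, had ratios of 0.52 and 0.72, a mean of 1.54-fold higher, which was the highest of the autophagy genes. ATG2A, which transfers lipids to the growing membrane, had 0.19 and 0.52. Both were above 0 in each hybridization. WIPI1 and WIPI2, which bind PI3P, were below 0 in each, with -0.46 and -0.17 for WIPI1 and -0.23 and -0.31 for WIPI2. The other 2 WIPI2 probes had means of -0.03 and -0.04.

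The conjugation machinery also held genes of both directions. ATG5, which is joined to ATG12, had ratios of -0.30 and -1.01, a mean of 1.57-fold lower. Its other probe had -0.91 and -0.50, a mean of 1.63-fold lower. Both ATG5 probes were below 0 in each hybridization, and neither passed 2-fold in both. ATG12, its partner, was on the other side of 0, at 0.35 and 0.45, with a mean of 0.32 at its other probe. ATG16L1, which binds the ATG5 and ATG12 conjugate, had 0.18 and 0.38, and ATG7, the activating enzyme of the pathway, had 0.34 and 0.27. These 3 were above 0 in each hybridization. ATG3, the enzyme that transfers ATG8 proteins to lipid, had -0.27 and -0.37. ATG4B, a protease that trims ATG8 proteins, had -0.17 and -0.15, and a mean of 0.12 at its other probe. ATG4A, a related protease, had 0.13 and -0.06, and ATG10, the enzyme that transfers ATG12 to ATG5, had -0.24 and 0.24. The last 2 had no common direction, though with the software's ratios ATG4A was above 0 in both hybridizations, at 0.23 and 0.10.

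Of the ATG8 proteins, which coat the autophagosome and bind cargo receptors, GABARAPL1 stood lowest. Its ratios were -0.51 and -0.47, a mean of 1.41-fold lower, and its other probe had -0.56 and -0.23. GABARAPL1 was below 0 at both probes and in both hybridizations. GABARAP (-0.18 and 0.16) and GABARAPL2 (0.29 and -0.13) had unlike signs in the hybridizations. The other GABARAPL2 probe had -0.06 and 0.34, and with the software's ratios the brightest had 0.11 and 0.11. MAP1LC3A had 0.17 and 0.16. MAP1LC3B, the LC3 form most used to count autophagosomes, had 0.26 and 0.17 at its brightest probe and means of -0.22 and -0.08 at the other 2, so its direction depended on the probe. The cargo receptors were SQSTM1, known as p62, with -0.07 and -0.30, and OPTN, with 0.26 and 0.12, and neither mean was farther from 0 than 0.19.

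**Figure D3:**
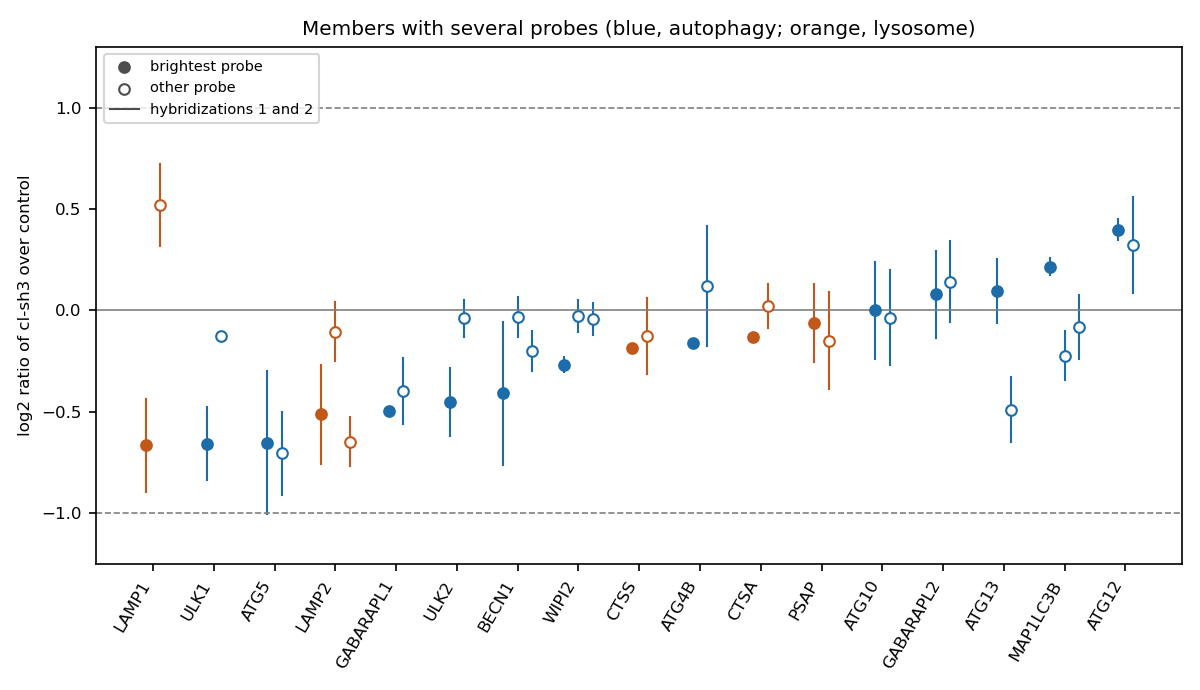
Mean log2 ratio of cl-sh3 over control at the brightest probe (filled) and each other probe (open) of the 17 members with several probes, with vertical lines running from one hybridization to the other (dashed lines, 2-fold). ATG5 and GABARAPL1 have probes close to each other below 0, and LAMP1 has 1 probe on each side of 0.

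Several probes were present for 17 members, and the mean ratio had the same sign at each probe in 11 of them. In the other 6, which were ATG10, ATG13, ATG4B, CTSA, LAMP1 and MAP1LC3B, the sign differed between probes. The highest and lowest probe of a gene lay a median of 0.24 apart, from 0.04 for ATG10 to 1.19 for LAMP1. The probes of a gene may read different transcripts, and which transcripts each probe reads was not examined here. The remaining 27 members had 1 probe, NUPR1 and CTSZ among them, and could not be checked in this way.

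The rest of the pathway was described with lists of genes that are not members. Of 30 other autophagy genes, none was past 2-fold in both hybridizations. By sign, 10 (33.3%) were below and 4 (13.3%) above 0 in both, beside 28.4% and 30.9% of all genes. The median was -0.05, which turned to 0.01 in the setting where it was highest. The lowest was CALCOCO2, the cargo receptor NDP52, at -0.44 and -0.63, with means of -0.73 and -0.31 at its other 2 probes, followed by the protease ATG4C at -0.54 and -0.51. The highest were ATG4D, a further protease of that family, at 0.20 and 0.28 and MTMR3, a phosphatase that removes PI3P, at 0.38 and 0.04. Of 49 other lysosomal genes measured, none was past 2-fold in both. By sign, 18 (36.7%) were below and 17 (34.7%) above 0 in both, and the median was 0.03 (-0.02 to 0.08 over the settings). ASAH1, acid ceramidase, was the lowest at -0.98 and -0.86. It and CD164, a sialomucin at -0.64 and -0.79 with -0.57 as the mean of its other probe, were the 2 genes past 1.5-fold. Of all genes, 2.61% were 1.5-fold or more lower in both hybridizations. The highest were SLC17A5, the sialic acid exporter, at 0.47 and 0.59, and DPP7, a dipeptidyl peptidase, at 0.10 and 0.85. The lower lysosomal median of the members was thus not seen in the longer lysosomal list.

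The vacuolar proton pump, which acidifies the lysosome, was represented by 16 subunits and accessory proteins. None was past 2-fold in both hybridizations. By sign, 6 (37.5%) were below and 4 (25%) above 0 in both, beside 28.4% and 30.9% of all genes. The median was -0.05, which reached 0.04 in the setting where it was highest. ATP6AP2, an accessory protein, had -1.05 and -0.26. ATP6V1B2 had -0.61 and -0.62 and was the 1 gene of the list past 1.5-fold, where 2.61% of all genes were lower by that much. ATP6V0D1 had 0.53 and 0.32, and ATP6V0C 0.39 and 0.38 with a mean of 0.66 at its other probe. Of the 12 autophagy genes known to be driven by ATF4 or CHOP, all of them members, 11 were measured. In both hybridizations 4 (36.4%) were below and 4 (36.4%) above 0, and the median was 0.00 (-0.02 to 0.06 over the settings). NUPR1, which also lies downstream of ATF4, was lower than each of these 11.

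**Figure D4:**
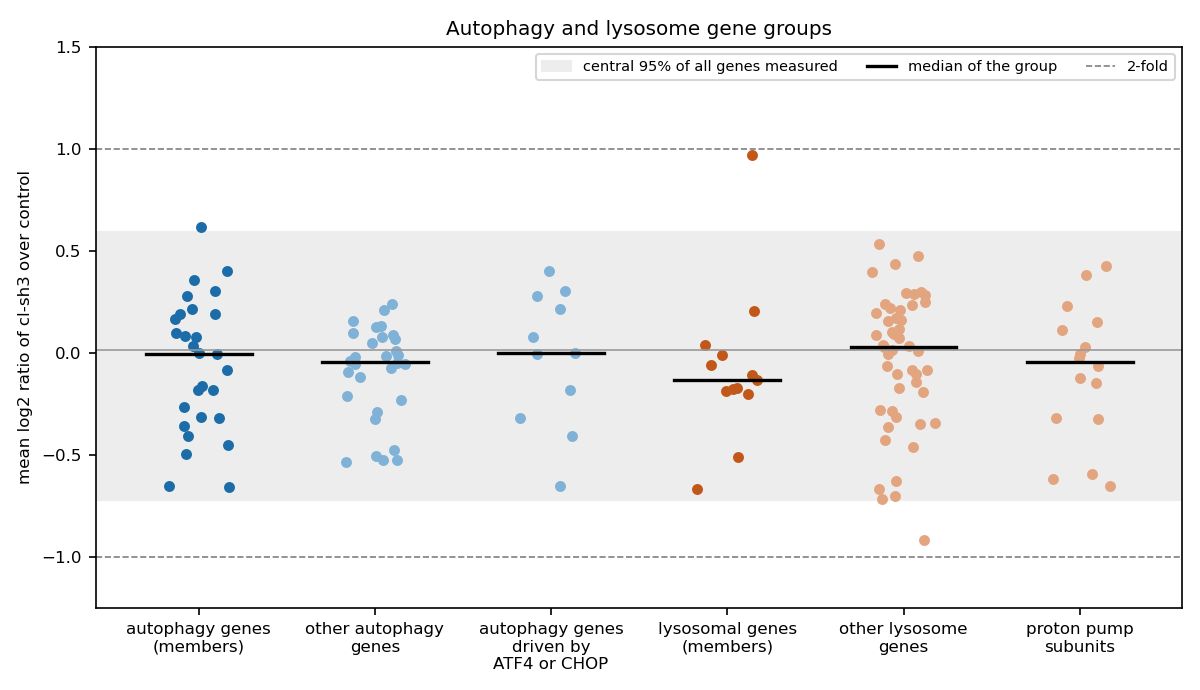
Mean log2 ratio of cl-sh3 over control for each gene of the 2 member classes and of 4 lists, with a bar at the median of each group, a grey band over the central 95% of all genes (-0.72 to 0.59) and a grey line at the median of all genes (dashed lines, 2-fold). The medians run from -0.13 in the lysosomal members to 0.03 in the other lysosomal genes, most points lie inside the band, and the sign of every median but that of the lysosomal members changes in at least 1 of the settings tried.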

How the data were processed

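RNA of cl-sh3 and of the control clone was hybridized in both dye orientations. The authors deposited the median pixel intensity of each spot and its local background, not normalized, with flags, as read by Agilent Feature Extraction (version 10.5.1.1 in the file headers, 8.5.1.1 in the submitters' processing notes). They also deposited log10 ratios (Cy5 over Cy3) that this software had corrected for background and dye, and a table that equals it to within 0.005.

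From the intensities, the background was corrected by normexp (offset 50) and each array normalized by loess in limma 3.58.1 (R 4.3.3). Control spots were left out after normexp, flagged spots (153 and 144 of 43376) were dropped, and spots of a probe were averaged. An RNA counted as well above background if the software's flag was set on 50% or more of its spots, and a probe was kept when 1 RNA or both did so in both hybridizations. Median signals were 451 to 902.5 per channel over backgrounds of 43 to 166.5, and no gene spot was saturated. The number of arrays limits the precision. The study's rule was used for calls, a 2-fold or larger difference of like direction in both hybridizations.

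Accessions were named through RefSeq (GRCh38.p14), which held 18023 of 19228. RUNX2's was named through the study's gene list. Promoter sequences are from the same release and were at hand for 37 members. The text names all members, RUNX2 and, of each further list, the 2 genes with the largest mean ratio in each direction among those of like sign in both hybridizations. The list driven by ATF4 or CHOP holds members only. Members and lists were chosen with earlier results of these data known.

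On simulated data for this comparison, 187 of 200 changed probes of 41000 were recovered and 0 were called falsely. Each planted change was larger than 2-fold and lay in a brighter probe, and the noise was technical only. The recovery therefore does not carry over to smaller differences, to dimmer probes or to variation between clones. In all, 14 alternatives were tried, covering background correction, normalization, flags, detection, probe choice, fold, class of the regulators and each hybridization left out.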

Additional observations from a re-analysis of the deposited data

How the results depend on the processing

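NUPR1 stayed at least 2-fold lower under each alternative, with mean ratios from -1.73 to -1.60, and at -1.49 and -1.97 with either hybridization alone. The median of the lysosomal genes was -0.0420 with median centring, -0.0795 with the software's ratios and -0.0794 with the deposited table. The last 2 also raised the members above 0 in both hybridizations from 10 to 17, and all genes above 0 in both from 4992 to 5706. RUNX2 was at -0.63 with the mean of all its probes, which include the 2 dimmer ones. With either hybridization alone, the median of the autophagy genes ranged from -0.113 to 0.0313, that of the lysosomal genes from -0.177 to -0.112, their difference from 0.0646 to 0.143 and the median of the proton pump from -0.150 to -0.0251. Members past 2-fold were then 1 to 2 lower and 0 to 1 higher, ATG5 and CTSZ being added by hybridization 2. Of all 16150 genes, 117 to 239 were then past 2-fold lower and 54 to 101 higher. By sign, 24 to 30 members were below and 14 to 20 above 0, beside 7810 to 7940 and 8210 to 8340 of all genes. The count of all genes past 2-fold in both hybridizations ranged from 73 to 117 lower and from 17 to 46 higher. Of 387 values of the other members under the 9 alternatives that used both hybridizations, 354 moved by less than the spread between them, 33 moved by more, and 9 changed sign, in ATG10, ATG13, GABARAP, GLA, MAP1LC3B and PSAP. No paired analysis was possible because the hybridizations are 1 replicate and no test was made. With 1 clone in each group, biological error cannot be seen.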
